A study of Mus musculus with 34 samples.

Results

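The genes of the cytosolic ribosomal proteins were followed through 34 brain fractions of 3 male C57BL/6J mice, 3 days old. Members were the probes whose RefSeq accession belonged to a gene with an Rpl or Rps symbol and a number, without mitochondrial ribosomal proteins, S6 kinases and pseudogenes. This gave 161 probes for 79 of the 20145 genes that could be named on the array. Rps23 and Rpl32l, which are among the 81 such genes of the reference table, had no matched probe. A probe was tested if some fraction of every series gave a spot well above background, which held for 159 of the 161 probes (78 genes). Among these, 155 were well above background in all 34 fractions, and the partly detected ones included probes of Rpl6, Rpl10l and Rpl39l.

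Each mouse gave 1 series, in which frozen brain was cut in 1 plane and every 100 slices of 5 µm were pooled into a fraction of 500 µm. There were 15 coronal, 8 horizontal and 11 sagittal fractions, each read on 1 single-colour array, and sagittal fractions 1 and 11 pooled 2 cuts each. The labels do not give the end of the brain at which the numbering starts, nor the sagittal fraction that holds the midline. With 1 mouse per series there are no replicates, and a p-value from a single series measures the spread between fractions of 1 brain. Fits over all fractions (array brightness and array column) pool this spread over the mice. No p-value below measures the spread between mice. A signal here is the log2 processed signal less the log2 75th percentile of its array, unless stated otherwise.

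Ribosomal proteins pair with ribosomal RNA to build the large (Rpl) and small (Rps) subunits, and their mRNAs are among the most abundant in almost any cell. Vertebrate cells coordinate their synthesis largely at translation, through a run of pyrimidines at the very start of the mRNA (a TOP motif), which responds to mTOR signalling and is bound by Larp1. A few members have a second gene with a related protein (Rpl22 and Rpl22l1, Rps27 and Rps27l, Rpl39 and Rpl39l), and some of these second genes are known for expression limited to certain tissues.

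The starts of the genes that recur in the results are shown as 30 bases of the RefSeq promoter table (GRCm38.p6), 15 on either side of the annotated start. Capitals mark a run of at least 8 letters, each C or T, on the gene's strand within 5 bases of the start, and a line with no capitals holds no such run.
Rps18 (chr17:33955651-33955680, minus strand): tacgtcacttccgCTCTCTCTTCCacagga
Rpl28 (chr7:4792950-4792979, plus strand): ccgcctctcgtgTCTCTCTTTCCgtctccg
Rpl35 (chr2:39005117-39005146, minus strand): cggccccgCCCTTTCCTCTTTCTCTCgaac
Rps27 (chr3:90213634-90213663, minus strand): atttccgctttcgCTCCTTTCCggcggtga
Rps15a (chr7:118116133-118116162, minus strand): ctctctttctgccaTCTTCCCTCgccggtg
Rpl22l1 (chr3:28805493-28805522, plus strand): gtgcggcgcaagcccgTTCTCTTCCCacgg
Rps15 (chr10:80292416-80292445, plus strand): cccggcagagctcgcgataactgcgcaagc
Rpl36al (chr12:69184053-69184082, minus strand): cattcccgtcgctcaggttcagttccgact
Rpl7l1 (chr17:46782642-46782671, minus strand): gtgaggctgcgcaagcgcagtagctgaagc
Such a run was present for 24 of 62 table genes with member symbols (38.7%) and for 3068 of all 27025 genes (11.4%). The 62 include Rps23 and Rpl32l, which had no matched probe, and Rpl32l is among the 24. These counts describe letters at annotated starts, and an annotated start can lie some bases away from the one used in the brain.

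Most members shared 1 profile, and the median member stayed within 1 log2 unit along a series. The median member was taken over the 155 probes well above background in all 34 fractions, each relative to its own mean. In the coronal series it stood at 0.19 in fraction 1 and -0.35 in fraction 3. It lay between -0.28 and 0.18 in fractions 4 to 10 and was 0.46, 0.51 and 0.48 in fractions 11 to 13, 0.14 in fraction 14 and 0.55 in fraction 15. In the horizontal series it was highest in fraction 1, at 0.22, and lowest in fraction 5, at -0.37. In the sagittal series it was 0.25 and 0.23 in the outermost fractions 1 and 11 and lowest, at -0.29, in fraction 6.

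**Figure D1:**
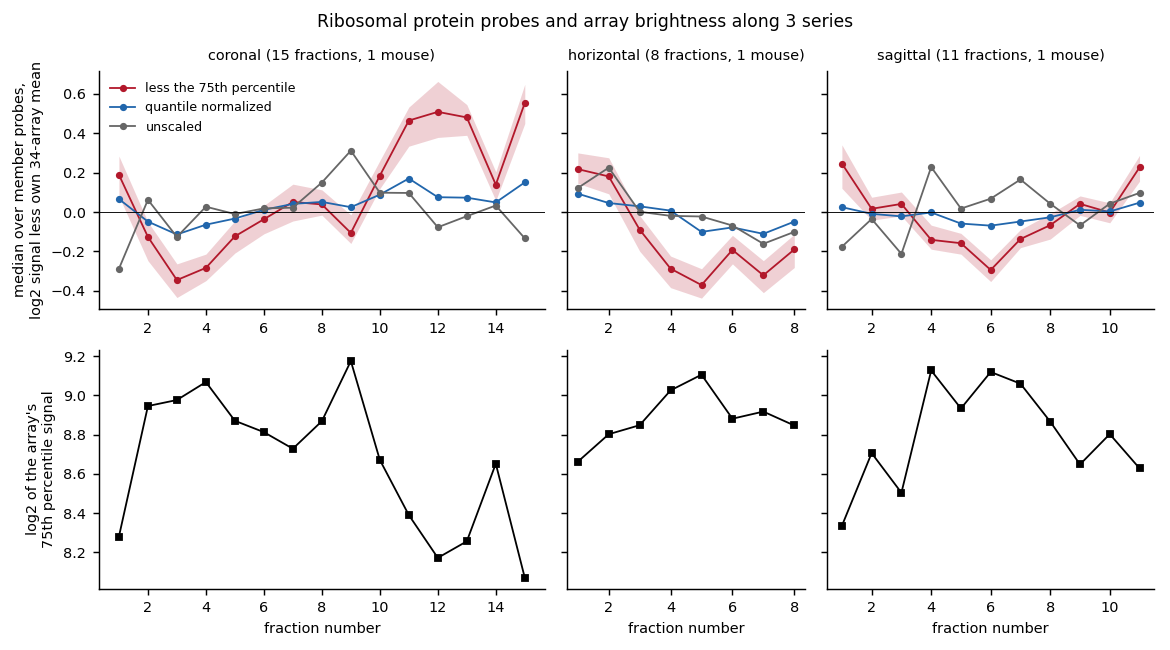
The upper panels cover the 155 member probes well above background in all 34 fractions. They plot the median log2 signal less the probe's own mean over 34 arrays, against fraction number, for 3 scalings (band, quartiles over probes for the percentile-scaled values). The lower panels plot the log2 75th percentile of each array. The percentile-scaled medians, between -0.37 and 0.55, run opposite to the lower panels, and the quantile-normalized medians stay between -0.11 and 0.17.

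This shape ran opposite to the brightness of the arrays. The log2 75th percentile of the processed signals ran from 8.07 in coronal 15 to 9.18 in coronal 9, with medians of 8.73, 8.86 and 8.80 in the coronal, horizontal and sagittal series. Over the 34 fractions the normalized signal of 156 of the 159 member probes had a Pearson's r below 0 with that percentile. So did 20925 of all 34186 tested probes. The median member r was -0.82, with quartiles of -0.88 and -0.73, whereas the median was -0.14 over all tested probes. The percentile is itself subtracted from every value, so that a probe whose raw brightness did not move would fall by 1 unit for each unit of the percentile. Other bright probes had a similar relation: among 1201 other probes whose median signal was at least 5.75, the lower quartile of the members, the median r was -0.70. Of these 1201 probes, 1106 had an r below 0. These 34 points share mice, slides and scaling, and the values of r are descriptions.

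The relation was present in each series, with a median member r of -0.87 in the coronal, -0.80 in the horizontal and -0.83 in the sagittal fractions. It was -0.79 after centring within slides and -0.76 without the 2 arrays farthest from the median brightness. Without any scaling the median member ran from -0.29 in coronal 1 to 0.31 in coronal 9. The SD of the members' raw log2 signals over 34 arrays had a median of 0.17, while it was 0.41 over all tested probes and 0.22 over the other bright probes. The median r of the raw signal with the percentile was 0.34, against 0.66 for all and 0.57 for the bright probes.

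Fitted with limma over 34 fractions, with the series as a term, the normalized signal fell with array brightness for 146 of 159 member probes (28.5% of all tested probes were called lower and 15.6% higher), and Rps15a A_52_P491433 was the 1 that rose. Among the other bright probes 79.7% were called lower. The median slope was -0.75 log2 units per unit of log2 percentile for members and -0.15 for all probes. The percentile is subtracted from the values fitted, so that a raw signal that does not fall can also be called lower. In the large subunit 92 of 103 probes were called lower, and in the small subunit 54 of 56. All probes of 67 genes fell, and 5 genes had no probe past the threshold. The arrays lay on 5 slides, numbered here: slide 1 held 6 horizontal fractions, slide 2 coronal 1 to 8, slide 3 coronal 9 to 15 without 12 and sagittal 1, slide 4 sagittal 2 to 9, and slide 5 the remaining fractions. When the relation was fitted within each of slides 1 to 4, no probe of any gene was called on any of them. In those fits 88 to 114 member probes had an unadjusted p under 0.05 with limma. That count was not made over all tested probes.

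Rpl37a, a small protein of the large subunit, had the lowest r. Its signal ran from 8.59 (fraction 4) through a median of 9.03 to 9.68 (fraction 12) in the coronal series, from 8.53 to 9.11 in the horizontal and from 8.69 to 9.31 in the sagittal, and its r was -0.93. Coronal fractions 10 to 15 were all above fractions 2 to 9, and fraction 1, at 9.19, lay among the later ones. Rpl35 (A_55_P2149020) had an r of -0.92 and was also lowest in coronal 4 and highest in coronal 12.

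**Figure D2:**
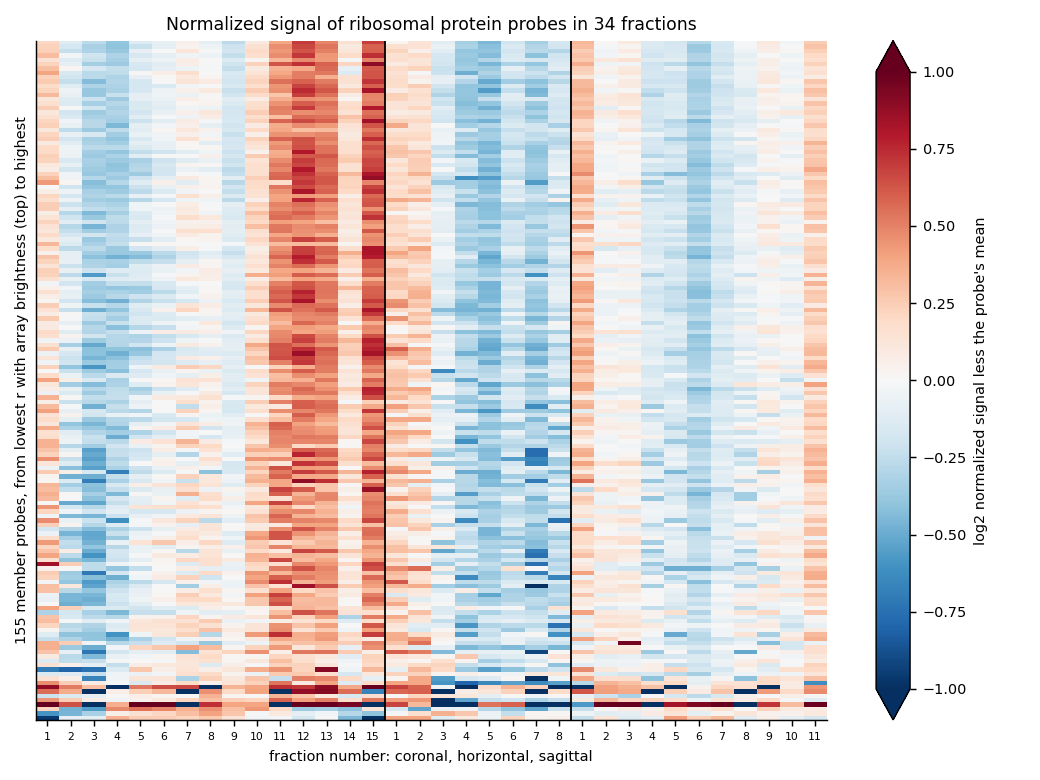
Each row is 1 of the 155 member probes detected in all 34 fractions and each column a fraction; colour gives the log2 normalized signal less the probe's mean, from -1 (blue) to 1 (red). Rows are ordered from the lowest r with array brightness (top) to the highest (bottom); red columns at coronal 11 to 13 and 15 run through most rows, and a few rows near the bottom depart from them.

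After quantile normalization, which gives every array the same distribution of signals, most of the common shape was gone. The median SD of a member over 34 fractions dropped from 0.28 to 0.14, and the median r with the percentile was -0.40, with -0.03 for all probes and -0.03 for the other bright probes. With limma 67 member probes were still called lower with brightness (20.2% of all tested probes) and 5 were called higher (19.7% of all). The 5 were 2 probes of Rpl6, 1 each of Rpl15 and Rps15a, and Rpl22l1.

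**Figure D3:**
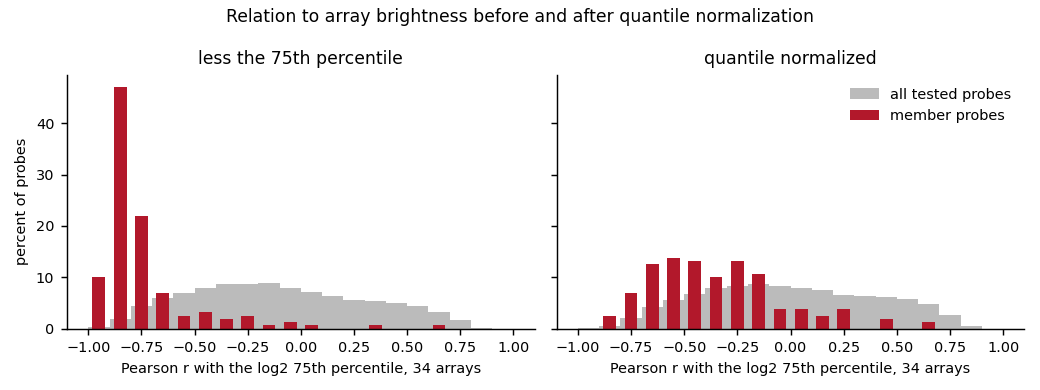
Bars give the percent of probes in bins of 0.1 of Pearson's r between a probe's signal and the log2 75th percentile over 34 arrays, for member probes (red) and all tested probes (grey), with percentile scaling on the left and quantile normalization on the right. The members pile up around a median of -0.82 on the left and spread around -0.40 on the right.

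Along the coronal axis, the question was whether the transcripts changed in density from one end of the brain to the other. The signal rose with fraction number for 116 of the 159 member probes and fell for none (over all tested probes 18.9% rose and 9.44% fell; among the other bright probes 54.1% rose). The median member slope was 0.051 log2 units per fraction, against 0.0092 for all probes. Counted by gene, all probes rose for 42 of 78 genes, some probes rose for 22 and none passed the test for 14. After quantile normalization 29 member probes rose (12.5% of all) and 2 fell (11.1% of all), these being Rpl7a A_55_P2001347 and Rpl4 A_55_P2014807.

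Position and slide overlapped in this series. Fractions 1 to 8 shared slide 2, and the later ones lay on slide 3 except fraction 12. With slide as a term no member probe was called, 7 had an unadjusted p under 0.05, and 251 probes of all genes were called. Within slide 2 limma called 3 member probes, 2 rising and 1 falling, and within slide 3 it called 0, with 18 at an unadjusted p under 0.05. Of all 34186 tested probes, 6503 were called within slide 2 and 2099 within slide 3. The unadjusted p under 0.05 was counted for members only. For the members the coronal rise and the step between slides cannot be told apart.

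Rps15, a protein of the head of the small subunit, had the steepest slope. Its probe A_66_P124555 ran from 5.60 in coronal 4 through a median of 5.95 to 6.93 in coronal 12, and rose by 0.082 ± 0.016 (SE) per fraction (adjusted p = 0.0019, limma). A second Rps15 probe (A_55_P2037524) was lowest and highest in the same 2 fractions, at 6.72 and 8.02, with a slope of 0.072 ± 0.016. Rpl28, a protein of the large subunit, lay between 5.96 and 6.42 in coronal fractions 1 to 10 and between 6.69 and 7.14 in fractions 11 to 15. Its slope was 0.073 ± 0.016, and 0.036 after quantile normalization (adjusted p = 0.018).

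Rps27a, which is made as a fusion with ubiquitin, was measured on a dim probe (A_55_P2025173) that ran from -3.32 in coronal 2 to -1.61 in coronal 13. Its slope was 0.081 ± 0.018, and 0.079 after quantile normalization. The other 2 Rps27a probes were flatter, at 0.050 ± 0.016 for A_55_P1976108 and 0.022 ± 0.013, which did not pass, for A_55_P2025174, and neither was called after quantile normalization. Rpl6 A_55_P2043639 had a slope of 0.078 ± 0.017, but was well above background in only 26 of 34 fractions and lay between -5.27 and -3.70 in this series. At the other end of the called probes, Rpl23 A_51_P108190 rose by 0.025 ± 0.0085 per fraction, from 2.65 in coronal 2 to 3.20 in coronal 11. Rpl17 A_55_P1998461 (0.032), Rps6 A_55_P1963817 (0.035), and Rpl6 A_55_P1990859 (0.029) and A_55_P2052634 (0.035) also had small slopes. Rps6 is the ribosomal protein that S6 kinases phosphorylate, and its probe had a slope of -0.0067 after quantile normalization, which did not pass the test.

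Compared as 5 blocks of 3 consecutive fractions, 97 member probes differed (40.0% of all tested probes and 51.0% of the other bright probes). After quantile normalization 31 did so (37.7% of all and 22.8% of the other bright probes). Blocks 1 and 2 lay on slide 2 and blocks 4 and 5 on slides 3 and 5. With slide as a term 2413 of all 34186 tested probes were called, among them 1 member probe. That probe, Rpl15 A_66_P140976, also had the largest F among the members without the slide term, and its shape was not that of the others. Its blocks had means of 3.73 ± 0.13, 4.33 ± 0.07, 4.51 ± 0.07, 4.18 ± 0.10 and 3.95 ± 0.19 (SD over 3 fractions), so that it was highest in the middle of the series (F = 14.2, adjusted p = 0.0024, limma, and 0.021 with slide as a term). The other Rpl15 probe (A_55_P1990457) was lowest in coronal 4, at 7.29, and highest in coronal 12, at 8.35. Rpl28, by contrast, had block means of 6.19 ± 0.20, 5.99 ± 0.06, 6.14 ± 0.05, 6.75 ± 0.30 and 6.91 ± 0.22 (F = 12.8, adjusted p = 0.15 with slide as a term, limma). Its last 2 blocks lay above the first 3 in their means.

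Along the horizontal axis no member probe passed the threshold in either direction with limma, where 0.959% of all tested probes rose and 0.804% fell (1.20% and 0.687% after quantile normalization, again with 0 members). The median member slope was -0.067 log2 units per fraction, and 157 of 159 slopes were below 0. Slopes below 0 were also found for 19980 of all 34186 tested probes and 960 of the 1201 other bright probes. At an unadjusted p under 0.05 (limma), which was not counted over all tested probes, there were 70 member probes. That number was 6 without fraction 1, 32 without fraction 2, 39 without fraction 7 and 110 without fraction 8, so that it moved with single fractions.

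In the sagittal series the signal was set against the distance from fraction 6, the middle of the 11 and an assumption about the midline. It rose towards the outer fractions for 121 member probes and fell for 1, Rps15a A_52_P491433 (18.3% of all tested probes rose and 9.97% fell; 54.9% of the other bright probes rose). The median slope was 0.093 log2 units per fraction of distance, against 0.014 for all probes. The array percentiles were also lower at the ends of this series, and with the percentile as a covariate 0 of 159 were called, with slide as a term 35, and within slide 4 18. Of all 34186 tested probes, those fits called 237, 2142 and 1950. With fraction 5 as the middle 0 members were called, with fraction 7 as the middle 47, and without the pooled end fractions 48. Of all tested probes, 0, 6296 and 3434 were called in those fits. After quantile normalization 21 member probes rose (13.4% of all) and 1 fell, Rpl22l1 (10.6% of all).

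Among probes well above background in every fraction, those of Rps19 and Rps18 rose most steeply. Rps19, mutated in Diamond-Blackfan anaemia, ran from 6.23 in sagittal 6 through a median of 6.65 to 7.17 in sagittal 1 (A_55_P2098471, slope 0.153 ± 0.028, adjusted p = 0.0031, limma). Rps18 ran from 5.58 in sagittal 5 to 6.48 in sagittal 1 (A_55_P2135631, slope 0.148 ± 0.024), and still rose after quantile normalization, by 0.089 (adjusted p = 0.0075). The dim Rpl6 probe A_55_P2043639 had the largest slope of all, 0.195 ± 0.048, between -5.07 and -3.63. The smallest called rises were those of Rps24 A_55_P1955243 (0.051 ± 0.017) and Rpl7 A_55_P2081168 (0.053 ± 0.017), and neither was called after quantile normalization, where their slopes were -0.041 and -0.026.

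In quantile-normalized values 12 probes of 12 genes rose in both the coronal series and the sagittal series, which is 41.4% of the 29 and 57.1% of the 21. Of all tested probes 1792 rose in both, where 4268 rose in the coronal and 4595 in the sagittal series. The 12 were 7.55% of the member probes, against 5.24% of all tested probes and 3.16% of the other bright probes. They included probes of Rpl6, Rpl7a, Rpl14, Rpl22, Rpl28, Rpl29, Rpl30, Rps15, Rps16, Rps18 and Rps27a. Rpl30 A_66_P125437 was called in both series under either scaling. It ran from 2.52 in coronal 3 to 3.58 in coronal 12 and from 2.53 in sagittal 6 to 3.35 in sagittal 1. Its coronal slope was 0.069 ± 0.010 with percentile scaling and 0.053 after quantile normalization (adjusted p = 0.00056), and its sagittal slopes were 0.121 and 0.091.

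A single probe of Rps15a ran against the rest of the members. Rps15a A_52_P491433, a dim probe, was at -2.38 in coronal 1 and -2.41 in coronal 15 and between -1.87 and -1.07 in the 13 fractions between them. It had the highest r with brightness of any member, 0.60. In the sagittal series it ran from -1.65 in fraction 1 to -1.01 in fraction 5 and fell with distance by 0.092 ± 0.029 (adjusted p = 0.037, limma). This call was lost in 17 of 26 alternatives, among them array median scaling, quantile normalization and slide as a term, with adjusted p from 0.021 to 0.42 over all of them. The other 2 Rps15a probes (A_55_P1960775 and A_55_P2109943) rose with distance by 0.089 ± 0.016 and 0.110 ± 0.017, and had r of -0.83 and -0.89 with brightness. The probes of this gene therefore disagreed in sign, and which of them follows the main Rps15a transcript was not tested.

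Rpl22l1, the paralog of Rpl22, was the gene whose only probe departed most from the common profile. Its signal was 6.22 in coronal 1, dropped to 5.53 and 5.45 in fractions 2 and 3, and lay between 6.19 and 6.54 in fractions 4 to 11. It was 5.65, 5.67 and 5.59 in fractions 12 to 14 and 6.12 in fraction 15, so that fractions 2, 3 and 12 to 14 lay below all others of the series. The blocks differed (F = 4.50, adjusted p = 0.047 with limma, 0.018 after quantile normalization and 0.089 with slide as a term). Its r with brightness was 0.073, and 0.41 after quantile normalization, where its sagittal signal fell with distance by 0.101 per fraction (adjusted p = 0.016). Rpl22 itself rose along the coronal series with both of its probes, from 6.08 to 7.28 for A_55_P2015989 (slope 0.053 ± 0.016) and from 4.11 to 5.02 for A_52_P391718 (slope 0.054 ± 0.011). The difference between the 2 genes was not tested.

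The other paralogs split by how well they were measured. Rps27l, a p53 target, lay between 4.62 and 5.71 in the coronal series and was highest in fraction 1, with a slope of 0.018 ± 0.018 that did not pass the test, while the 4 Rps27 probes rose with slopes from 0.061 to 0.066. Rpl7l1 lay between -1.48 and -0.61 and its coronal slope did not pass (0.024 ± 0.016), although its blocks differed (F = 7.17, adjusted p = 0.014 with limma, and 0.12 with slide as a term). Rpl36al lay between 4.41 and 5.58 with a slope of 0.024 ± 0.017, which did not pass. Of the 3 Rpl36a probes, 1 rose with a slope of 0.046 ± 0.015. Rpl36al and all 3 Rpl36a probes were lowest in coronal 3 within that series.

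**Figure D4:**
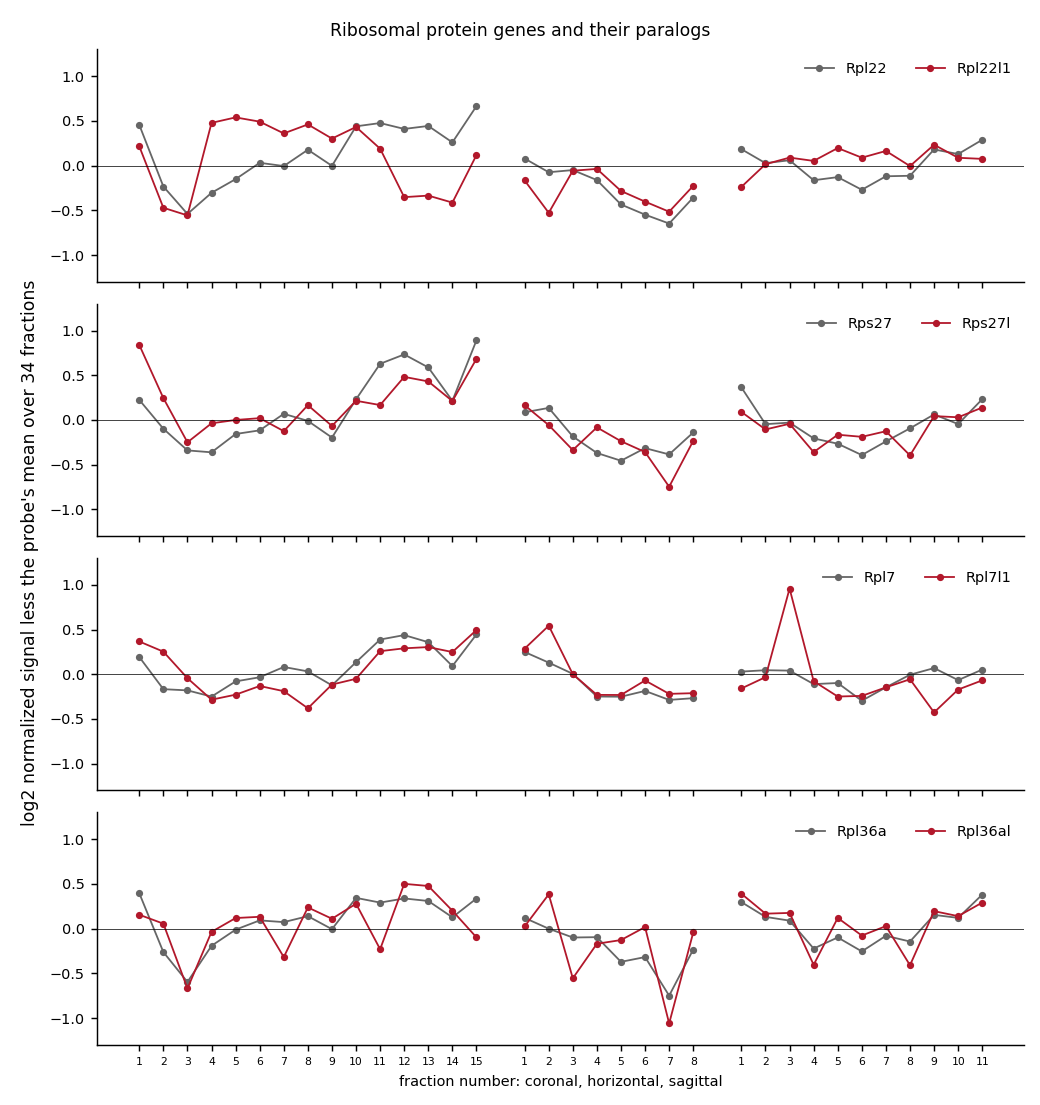
Lines give the log2 normalized signal of 1 probe per gene, less the probe's mean over 34 fractions, against fraction number in the coronal, horizontal and sagittal series, for 4 ribosomal protein genes (grey) and their paralogs (red). Rpl22l1 is low in coronal 12 to 14, where Rpl22 is above its mean, both are low in coronal 3, and Rpl36al shows single low fractions.

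Paralogs known for expression in testis or muscle were near background. Rpl39l was well above background in 20 fractions, with signals from -6.82 to -2.23. The 2 Rpl10l probes were so in 7 and 2 fractions and Rpl3l in 5, and Rpl3l was highest in coronal 15, at -1.80. These levels were close to the limit of detection, where the SD over 34 fractions was 0.86 to 0.90, and no slope of the tested probes passed.

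At the study's default of r = 0.85 for transcripts of similar distribution, the members formed a dense group. Of 12433 pairs of member probes from different genes, 5055 (40.7%) reached 0.85 over 34 fractions, against 0.149% of all pairs of tested probes and 10.6% of pairs among the other bright probes. The median r of these member pairs was 0.82. After quantile normalization 101 pairs (0.812%) reached 0.85, against 0.0613% of all pairs and 0.536% of the bright pairs, and the median r was 0.25. For pairs of probes of the same gene the median r was 0.87 before and 0.52 after, with 73 and 14 of 128 pairs at 0.85 or more. All these pairs share array, scaling and neighbouring tissue.

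A few members carried a pattern of the slide. An 8-array slide has 2 rows and 4 columns of arrays, and the fractions were laid along them in order, so that fractions 4 apart mostly fell in the same column. A term for array column, fitted after it had been seen in the values, was called for 8 member probes (3.56% of all tested probes). All 8 were spotted on even rows and even columns of the array, where 38 member probes lie, and none of the 121 members elsewhere was called. Of all tested probes, 1111 of 8441 in such positions were called (13.2%), and 14 of 8599, 91 of 8575 and 2 of 8571 in the other positions.

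Rps21 A_52_P740562 was the clearest case. Its signal was between 1.86 and 2.74 on the 7 arrays of column 4 and between 3.98 and 5.06 on the 27 others, with no overlap, as for 0.392% of all tested probes (F = 133, adjusted p = 2.0e-14, limma). Rpl7a A_55_P2024080 lay between 3.88 and 5.52 on the 8 arrays of column 3 and between 6.26 and 7.10 elsewhere, as did 0.290% of all tested probes. Rpl17 A_55_P2057519, with the largest SD of any member (1.29), had medians of 4.62, 4.32, 1.91 and 3.89 in columns 1 to 4. For Rpl36al the medians were 5.20, 5.24, 4.67 and 5.20, and column 3 holds coronal 3, where its signal was lowest within the coronal series. After centring within columns, the r with brightness moved from -0.31 to -0.70 for Rps21, from -0.24 to -0.68 for Rpl7a A_55_P2024080 and from -0.41 to -0.71 for Rpl36al, while for Rpl17 A_55_P2057519 it was -0.093 before and -0.19 after. The cause of the column pattern was not tested.

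**Figure D5:**
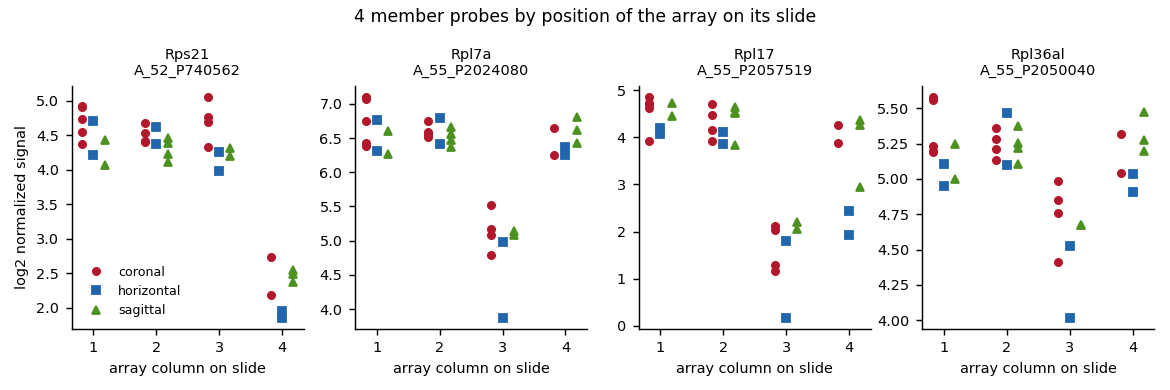
Points are the log2 normalized signals of 4 member probes on 34 arrays, by the column (1 to 4) of the array on its slide, with a symbol for each series. Rps21 is low on every array of column 4, and Rpl7a A_55_P2024080 on every array of column 3.

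Lists of genes that work beside the members were read in the same comparisons, each gene on its brightest tested probe. Their counts stand against the 18.9% of all tested probes that rose along the coronal series, the 18.3% that rose with sagittal distance and the 28.5% that fell with brightness. Among the other bright probes these shares were 54.1%, 54.9% and 79.7%. Of the 7 tested genes among the acidic stalk and other cytosolic ribosomal proteins, which fall outside the symbol rule, 6 rose along the coronal series, 7 rose with sagittal distance and 7 fell with brightness. Rplp1, of the stalk that recruits elongation factors, had a coronal slope of 0.068 ± 0.017 and a sagittal slope of 0.134 ± 0.018. Rpsa had a coronal slope of 0.033 ± 0.016, which did not pass. Of 15 elongation factor and other TOP genes, 6, 10 and 13 did the same, among them Btf3, which binds nascent chains (coronal slope 0.054 ± 0.011). Of 18 initiation factors, 3 rose along the coronal series, a share near that of all probes, such as the helicase gene Eif4a1 (slope 0.064 ± 0.013), and 9 with sagittal distance, while 8 fell with brightness. After quantile normalization, along the coronal series, 2 of the 7 and 1 of the 15 rose, 1 of the 15 fell, and 0 of the 18 were called. With sagittal distance 0 of the 7, 0 of the 15 and 2 of the 18 rose, and with brightness 3 of the 7, 5 of the 15 and 3 of the 18 fell while 1 of the 15 and 3 of the 18 rose.

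Of 25 ribosome biogenesis genes 8 rose along the coronal series and 14 with sagittal distance, and 17 fell with brightness. Rrp9, a protein of the U3 particle, had the steepest coronal slope of these (0.096 ± 0.014), and after quantile normalization 6 of the 25 rose and 2 fell along that series, 8 rose and 1 fell with sagittal distance, and 12 fell with brightness. Mitochondrial ribosomal proteins, which are made in the cytosol for another ribosome, gave 44 of 77 rising and 0 falling along the coronal series, 33 rising with sagittal distance, and 64 falling and 1 rising with brightness. After quantile normalization 12 and 13 of them rose, shares near the 12.5% and 13.4% of all tested probes, and 43 fell and 2 rose with brightness. Of 15 regulators of ribosome synthesis, 2 rose and 2 fell along the coronal series and 1 rose with sagittal distance. With brightness 3 fell and 2 rose. Of all tested probes 9.44% fell along the coronal series and 15.6% rose with brightness, so these counts do not set the list apart. Larp1, the TOP-binding protein, was among the regulators that fell along the coronal series (-0.043 ± 0.013) and rose with brightness (slope 0.63 ± 0.10). After quantile normalization 2 of the 15 rose and 3 fell along the coronal series. With sagittal distance 1 rose and 2 fell, and with brightness 3 rose and 1 fell.

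Marker genes of cell types and regions changed along the series too, and in whole fractions fewer cells of a type and less RNA per cell cannot be told apart. Over 34 fractions the median member profile had an r of 0.83 with the summed linear signal of 5 endothelial genes (in multiples of each array's 75th percentile), which was 35.2 to 51.2 in coronal fractions 1 to 3 and 58.2 to 61.8 in fractions 13 to 15. Only 1 of the 5 endothelial genes rose along the coronal series. The r was -0.70 with 9 genes of maturing neurons, which summed to 209.6 to 281.3 and 144.4 to 172.7 in those fractions although 3 of the genes rose and 4 fell along the series, 0.50 with 7 newborn neuron genes, 0.53 with 6 microglial genes, 0.27 with 5 red blood cell genes and 0.06 with 9 genes of proliferating cells. All 5 cerebellar and all 5 hindbrain genes fell along the coronal series and all 5 cortical genes rose, and their summed signals had r of -0.50, -0.53 and 0.32. The lists for astrocytes, oligodendrocytes, choroid plexus, meninges, midbrain, thalamus, striatum and olfactory bulb had r from -0.69 (thalamus) to 0.26 (striatum). Both sides of each r are scaled by the same array percentile, with which the endothelial sum had an r of -0.82, the microglial sum -0.64 and the sum for maturing neurons 0.53. The part of these cell types in the member profile was not tested.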

How the data were processed

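Total RNA from each of 34 fractions was labelled with Cy3 and hybridised to 1 Agilent SurePrint G3 Mouse GE array, and per the file headers the authors used Agilent Feature Extraction 10.10.1.1 to read the scans. The deposited intensity values are the processed signal (background-subtracted, not scaled between arrays), the spot and background medians and 0 or 1 flags. A deposited table gives log2 values of 43199 probes. Of these values, 99.9% differed by at most 0.02 from the log2 processed signal once 1 number per array, within 0.012 of its log2 75th percentile, was taken off.

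Spots of a probe were averaged over 55681 probes that are not controls, the log2 75th percentile was subtracted, and the 34186 probes with a spot well above background somewhere in every series were tested with limma 3.58.1 (lmFit and eBayes, R 4.3.3), Benjamini-Hochberg adjusted, with calls at 0.05. Accessions named 26582 probes (47.7%). Levels of different probes were set against each other to pick the other bright probes and the brightest tested probe of each listed gene. They were also added up in the summed marker signals, where the brightest genes weigh most. The precision is limited by 1 array per fraction. The analysis was tested on simulated data with 200 planted changes. Named probes were the extremes of each test, of r and of SD, and the paralogs; Rpl4, Rpl7a and the array column probes were named after their values were seen. Members, lists and tests were chosen with earlier results of these data known. Alternatives were another scaling, background, filter, slide and leaving out each fraction, and, added after seeing the data, array column and fits within slides. Marker and pathway lists (translation, ribosome biogenesis, cell types, brain regions) describe the fractions. Some members are not reported here by name.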

Additional observations from a re-analysis of the deposited data

Results flagged for a closer look

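One signal stood far from its group. Rpl7a A_55_P2037922 was at -0.41 in horizontal 3, while the other 7 horizontal fractions lay between 3.65 and 4.62, a gap of 0.808 of the whole range, beyond Dixon's critical value for 8 values. This probe is a single spot on the array. Of 54 sets of values examined this was the 1 past the limit. The probe had been picked for its large SD over all fractions, which this same value raises. The usual chance rate of about 1 in 20 therefore does not apply to it, and the test cannot say how unusual the value is.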

How the results depend on the processing

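The counts of member probes called kept within 1.5 times their value under array median scaling, normexp background, the deposited log2 table, a stricter or no filter and without the slide of mixed series, except in the horizontal series, where normexp gave 2, limma-trend 1 and slide as a term 1 in place of 0. For the coronal gradient (116) quantile normalization gave 31, slide as a term 0, the 75th percentile as a covariate 45, and the fits within slides 2 and 3 gave 3 and 0. For the coronal blocks (97) these were 31 with quantile normalization, 1 with slide, 31 with the percentile and 62 with array column as a term. For sagittal distance (122) they were 22 with quantile normalization, 35 with slide, 0 with the percentile, 48 without the pooled end fractions, 0 and 47 with fractions 5 and 7 as the middle, and 18 within slide 4. For array brightness (147) quantile normalization gave 72 and each of the fits within slides 1 to 4 gave 0. Over all 34186 tested probes, in the same order, the coronal gradient (9677) gave 8047, 251, 6172, 6503 and 2099. The coronal blocks (13672) gave 12882, 2413, 7834 and 9673. Sagittal distance (9666) gave 8230, 2142, 237, 3434, 0, 6296 and 1950, and array brightness (15056) gave 13633 and 0 within each slide. The median r became -0.40 and the pairs at 0.85 became 101 with quantile normalization. Apart from the fits on fewer fractions, the cause of these shifts was not tested.

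Leaving out each fraction in turn gave 86 to 141 for the coronal gradient, 68 to 125 for the blocks, 0 to 0 for the horizontal gradient, 102 to 128 for sagittal distance, 144 to 148 for brightness, -0.84 to -0.80 for the median r and 4598 to 5308 pairs. Of 904 alternatives for 29 single probe results, 691 kept direction and call, 195 lost the call, 5 gained it and 13 changed sign. With quantile normalization the coronal slopes of Rpl6 A_55_P1990859, Rpl6 A_55_P2052634 and Rps6 A_55_P1963817 became -0.011, -0.0049 and -0.0067, and the sagittal slopes of Rps24 and Rpl7 A_55_P2081168 became -0.041 and -0.026. Within slide 2 the coronal slopes were -0.017 for Rpl28, -0.0059 for Rps6 and -0.0038 for Rpl6 A_55_P2052634. The slopes on brightness within slide 1 were -1.10 for Rps15a A_52_P491433, -0.24 for Rpl15 A_66_P140976 and -0.21 for Rpl22l1, and for Rpl22l1 -0.32 within slide 2 and -0.022 within slide 4. Dim probes are limited by their signal over background. No paired analysis was possible because fraction numbers are positions along different axes in different mice.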
